A study of Homo sapiens with 9 samples.

Results

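TXNIP (thioredoxin-interacting protein), the alpha-arrestins ARRDC1, ARRDC2, ARRDC3 and ARRDC4, the transcription factors MLXIP, MLXIPL and MLX, and the thioredoxins TXN and TXN2 were followed in U251 cells, an established human glioblastoma line. The 10 genes were taken by symbol from a table of 22295 entries, 19932 of them gene symbols, and each symbol was found once. Of the 10, 9 passed a minimum mean of 0.1 FPKM, a fragment count divided by transcript length and by the mapped fragments of the library, and MLXIPL did not. The data consisted of 9 RNA-seq libraries of total RNA, 3 from each of 3 groups. Cells of the group sh-Luci-3d had carried a control sh-RNA lentivirus against luciferase for 3 days. In the other groups a lentivirus against PTBP1, an RNA-binding repressor of neuronal splicing, had been present for 3 days (sh-Ptbp1-3d) or 7 days (sh-Ptbp1-7d). Per the study's methods, 1 sh-RNA was carried forward, and the cultures were moved at 2 days post infection (dpi) to a neuronal induction medium with N2, B27, forskolin and dorsomorphin. No sh-Luci library of 7 dpi was among the 9, so time in that medium and time since knockdown cannot be told apart. The labels do not say whether the libraries of a group came from separate cultures, and p-values therefore measure only the spread between these libraries.

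Alpha-arrestins are adaptor proteins that link membrane proteins to ubiquitin ligases of the NEDD4 family and so to their uptake and degradation. TXNIP is the member that also binds thioredoxin through a disulfide bond, and it lowers glucose uptake by promoting internalisation of glucose transporters. Its transcription is known to follow sugar phosphates in the cell, sensed by MLXIP (MondoA) or MLXIPL (ChREBP), each paired with MLX on carbohydrate response elements. TXN and its mitochondrial counterpart TXN2 reduce protein disulfides and pass electrons to peroxiredoxins.

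The targeted gene was examined first. PTBP1 was at 110.7, 111.9 and 124.4 FPKM in the sh-Luci-3d libraries, 66.2, 64.4 and 61.0 FPKM in those of sh-Ptbp1-3d, and 49.7, 50.7 and 51.0 FPKM in those of sh-Ptbp1-7d. The 3 groups did not overlap, and the gene moved the way the labels say. The FPKM values summed to between 386628 and 404922 in the 6 libraries of 3 dpi and to between 367412 and 379050 in the 3 libraries of 7 dpi. One library stood apart in STMN2 and DCX. Replicate 3 of sh-Ptbp1-3d held 11.5 FPKM of STMN2, a neuronal tubulin-binding protein listed at 0 in the other 8 libraries, and 2.14 FPKM of DCX, which did not exceed 0.0346 FPKM elsewhere. Over all entries above the minimum mean, sh-Luci-3d replicate 3 was at least as far from its group. The SD of its log2 difference was 0.546 and 0.538 from replicates 1 and 2, against 0.528 and 0.535 for sh-Ptbp1-3d replicate 3. The glioma markers VIM, CD44, NES and SOX2 were present in every library, whereas GFAP stayed low, with a highest value of 1.15 FPKM. Of 10 blood and immune markers, CD3E, TYROBP and AIF1 were listed at 0 in all libraries and the summed level of the list ran from 0.465 to 1.18 FPKM.

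The promoters of the 3 alpha-arrestins that rose, and of TXN, which fell, are shown because the levels below turn on these genes. RefSeq sequences of GRCh38.p14, from 250 bases before to 50 bases after an annotated start, were found for 9 of the 10 genes, 12 promoters in all. Capitals mark matches to 5 motifs searched on both strands. The E-box CACGTG was the simplest of them. A form of the carbohydrate response element was searched as a pair of CACGNG copies with 5 bases between, where either copy may also be an E-box. The CCAAT box is bound by NF-Y. The cyclic AMP response element was searched as TGACGTCA. The forkhead motif was searched as GTAAACA. Each line below gives 1 promoter, 5′ to 3′ along the gene.
TXNIP, chr1:145996530-145996829, minus strand: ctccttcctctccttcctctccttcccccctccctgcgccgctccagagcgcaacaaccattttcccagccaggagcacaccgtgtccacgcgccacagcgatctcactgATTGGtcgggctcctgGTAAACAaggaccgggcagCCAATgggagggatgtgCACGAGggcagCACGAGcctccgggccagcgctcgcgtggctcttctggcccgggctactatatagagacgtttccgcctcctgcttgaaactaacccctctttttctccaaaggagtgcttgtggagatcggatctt
ARRDC3, chr5:91383268-91383567, minus strand: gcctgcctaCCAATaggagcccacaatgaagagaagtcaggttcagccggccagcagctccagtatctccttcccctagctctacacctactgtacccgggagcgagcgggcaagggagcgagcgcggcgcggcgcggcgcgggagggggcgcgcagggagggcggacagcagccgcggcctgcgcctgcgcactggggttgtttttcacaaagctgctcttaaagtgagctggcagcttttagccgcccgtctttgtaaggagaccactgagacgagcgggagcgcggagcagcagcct
ARRDC4, chr15:97960453-97960752, plus strand: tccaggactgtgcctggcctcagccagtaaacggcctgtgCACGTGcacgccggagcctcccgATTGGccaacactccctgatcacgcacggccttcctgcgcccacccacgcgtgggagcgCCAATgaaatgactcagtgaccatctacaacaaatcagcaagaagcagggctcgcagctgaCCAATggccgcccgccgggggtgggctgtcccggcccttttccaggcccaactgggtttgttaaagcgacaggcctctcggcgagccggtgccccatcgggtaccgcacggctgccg
TXN, chr9:110256458-110256757, minus strand: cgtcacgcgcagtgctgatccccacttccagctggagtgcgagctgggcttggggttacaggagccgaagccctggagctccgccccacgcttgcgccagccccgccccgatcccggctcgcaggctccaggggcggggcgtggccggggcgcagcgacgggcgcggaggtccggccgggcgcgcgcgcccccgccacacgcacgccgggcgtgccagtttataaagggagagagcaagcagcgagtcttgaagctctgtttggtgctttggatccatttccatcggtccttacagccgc
The paired element stood in TXNIP at positions -88 to -72 from the start, and it was found in 20 of 35116 RefSeq promoters (0.057%) and in no other promoter of these genes. Other forms of the carbohydrate response element were not searched, so these counts hold for this form alone. GTAAACA was at -124 in TXNIP and also in the promoter of a second ARRDC3 start, against 3.42% of all promoters. CACGTG stood at -210 in ARRDC4 and at -50 in MLX, and 7.26% of all promoters held it. CCAAT was present in 7 of the 12 promoters, among them TXNIP, ARRDC3 and ARRDC4 with 3 matches, against 34.6% of all promoters. TGACGTCA was found in MLXIP alone at -57 and in 1.85% of all promoters. The TXN window held none of these letters. No 2 of the matches in these promoters overlapped. A match is a description of letters and says nothing on whether a factor is bound.

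TXNIP lies on chromosome 1 from 145992435 to 145996600 (GRCh38, minus strand, protein coding). By mean level it stood at percentile 73.8 of all gene symbols in sh-Luci-3d, 73.4 in sh-Ptbp1-3d and 99.1 in sh-Ptbp1-7d. It was at 12.1, 12.2 and 9.23 FPKM in the sh-Luci-3d libraries, 8.48, 11.8 and 12.5 FPKM in those of sh-Ptbp1-3d, and 218.7, 245.9 and 224.5 FPKM in those of sh-Ptbp1-7d. The day 3 groups overlapped, and every day 7 library lay far above both. The study had picked TXNIP as a candidate on these same libraries, so its rise is not independent evidence of a direction. What follows sets it beside its relatives, its regulators and its binding partner.

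Differences were tested with limma on log2(FPKM + 0.1) over the 15551 entries whose mean reached 0.1 FPKM, with Benjamini-Hochberg adjustment over all of them. On this scale the change of a low gene comes out smaller than it is. A gene was called at an adjusted p below 0.01 in the comparisons with sh-Ptbp1-7d and below 0.05 between the day 3 groups. From sh-Ptbp1-3d to sh-Ptbp1-7d, TXNIP rose by 4.40 on the log2 scale (standard error 0.150, limma adjusted p = 8.68e-09), which was the 29th largest rise of the 15551. Of the 9 genes tested, 3 rose (TXNIP, ARRDC3 and ARRDC4), where 20.3% of all genes rose, and 3 fell (TXN, MLXIP and MLX), where 15.5% of all genes fell. With a fold change above 2 as well, the same 3 rose against 8.31% of all genes, and 1 (TXN) fell against 5.9%. Libraries of sh-Ptbp1-7d and sh-Ptbp1-3d did not overlap for 3 higher genes, against 35.3% of all genes, and for 4 lower genes (ARRDC1, MLXIP, MLX and TXN), against 27%. The median log2 fold change was -0.18 over the 9 genes and 0.09 over all genes. In bulk RNA, fewer cells that carry a transcript and less of it per cell cannot be told apart.

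**Figure D1:**
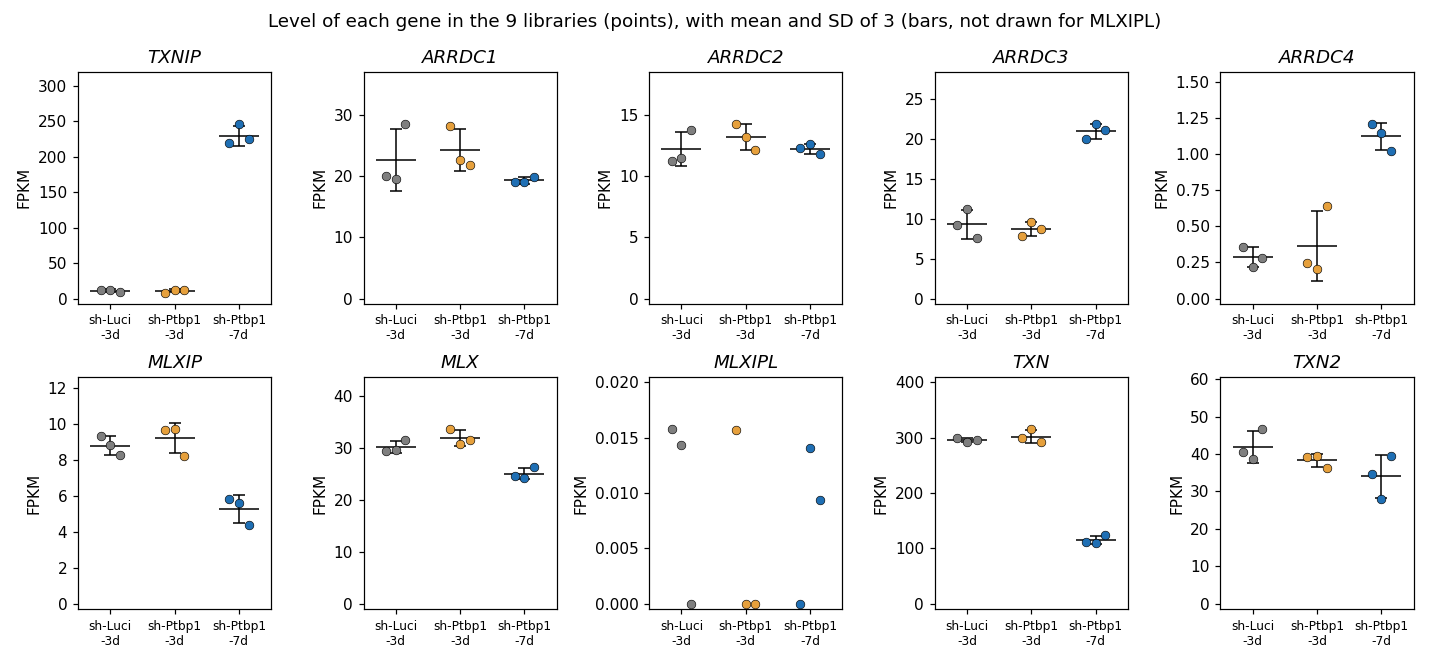
FPKM of the 10 genes in each of the 9 libraries, with points for libraries and bars for the mean and SD of 3 libraries (no bars for MLXIPL), each panel on its own linear axis. The day 7 points lie above all day 3 points for TXNIP (218.7 to 245.9 FPKM), ARRDC3 and ARRDC4, and below them for MLXIP, MLX and TXN (110.3 to 123.9 FPKM).

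ARRDC3, on chromosome 5 from 91368724 to 91383359 (minus strand), is the adaptor known for the turnover of the beta2-adrenergic receptor and of integrin beta4. It was at 9.22, 11.2 and 7.60 FPKM in the sh-Luci-3d libraries, 7.88, 9.63 and 8.75 FPKM in those of sh-Ptbp1-3d, and 19.96, 21.9 and 21.1 FPKM in those of sh-Ptbp1-7d. The day 7 libraries were all higher than the day 3 libraries, and between the knockdown groups ARRDC3 rose by 1.26 on the log2 scale (standard error 0.134, limma adjusted p = 2.4e-05). The antisense gene ARRDC3-AS1 overlaps ARRDC3 over 3011 bases. Strand use in the counting is not given in the sources used here, and reads of the pair then cannot be told apart.

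ARRDC4, on chromosome 15 from 97960698 to 97973838 (plus strand), is the alpha-arrestin most similar to TXNIP in sequence and another known target of MLXIP. It was low throughout, at 0.357, 0.219 and 0.278 FPKM in the sh-Luci-3d libraries, 0.244, 0.205 and 0.643 FPKM in those of sh-Ptbp1-3d, and 1.21, 1.14 and 1.02 FPKM in those of sh-Ptbp1-7d. Its highest day 3 value was in replicate 3 of sh-Ptbp1-3d, the library that held STMN2, and the day 7 libraries still lay above it. Between the knockdown groups ARRDC4 rose by 1.52 on the log2 scale (standard error 0.328, limma adjusted p = 0.00297), and by 1.92 (adjusted p = 0.000297) without that library. ARRDC4 lost its call when replicate 1 or 2 of sh-Ptbp1-3d, or replicate 1 or 2 of sh-Ptbp1-7d, was left out (adjusted p = 0.0124 to 0.0139). With a pseudocount of 1 the ARRDC4 log2 fold change was 0.65.

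ARRDC1 and ARRDC2 did not pass the test in any comparison. ARRDC1, on chromosome 9 from 137605654 to 137615360 (plus strand), recruits TSG101 to bud vesicles from the plasma membrane. It was at 20.03, 19.5 and 28.5 FPKM in the sh-Luci-3d libraries, 28.1, 22.6 and 21.9 FPKM in those of sh-Ptbp1-3d, and 19.0, 19.0 and 19.9 FPKM in those of sh-Ptbp1-7d. All 3 day 7 libraries lay below those of sh-Ptbp1-3d, at a log2 fold change of -0.32 with a 95% interval from -0.64 to 0.0045 (limma adjusted p = 0.093), but they overlapped with sh-Luci-3d. ARRDC1 overlaps the antisense ARRDC1-AS1 by 29 bases at its 3′ end and AL590627.2, a transcript on the same strand, over 9617 bases, so read sharing is uncertain. ARRDC2, on chromosome 19 from 18001132 to 18014102 (plus strand), had the smallest difference of the family in both comparisons with sh-Ptbp1-7d. It was at 11.3, 11.5 and 13.8 FPKM in the sh-Luci-3d libraries, 14.2, 13.2 and 12.2 FPKM in those of sh-Ptbp1-3d, and 12.3, 12.6 and 11.8 FPKM in those of sh-Ptbp1-7d, with overlap between all groups. Its log2 fold change between the knockdown groups was -0.11 with a 95% interval from -0.33 to 0.12 (adjusted p = 0.406). ARRDC5, the remaining human alpha-arrestin, was listed at 0 in all 9 libraries.

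The make-up of the family was therefore different at 7 dpi. The FPKM of TXNIP and ARRDC1 to ARRDC4 summed to 52.9 to 59.4 in the sh-Luci-3d libraries, 55.9 to 59.0 in those of sh-Ptbp1-3d and 271.1 to 300.5 in those of sh-Ptbp1-7d. TXNIP contributed 20.2% ± 4.07 (SD, n = 3) of that sum in sh-Luci-3d, 19.1% ± 4.17 in sh-Ptbp1-3d and 81.0% ± 0.678 in sh-Ptbp1-7d. At 3 dpi ARRDC1 was the most abundant member of the family in every library, and at 7 dpi TXNIP was. The other 4 members together were at 44.5 ± 4.97 FPKM, 46.5 ± 3.62 FPKM and 53.7 ± 1.10 FPKM (SD, n = 3 each) in the control, the 3 dpi and the 7 dpi knockdown libraries. The share of TXNIP was 62.0 percentage points higher at 7 dpi than in sh-Ptbp1-3d and 60.8 points higher than in sh-Luci-3d (exact permutation test, two-sided, p = 0.1 each). This is the smallest p that 3 libraries against 3 allow. The share rests on TXNIP, which was picked on these same libraries, so its test is not independent evidence.

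**Figure D2:**
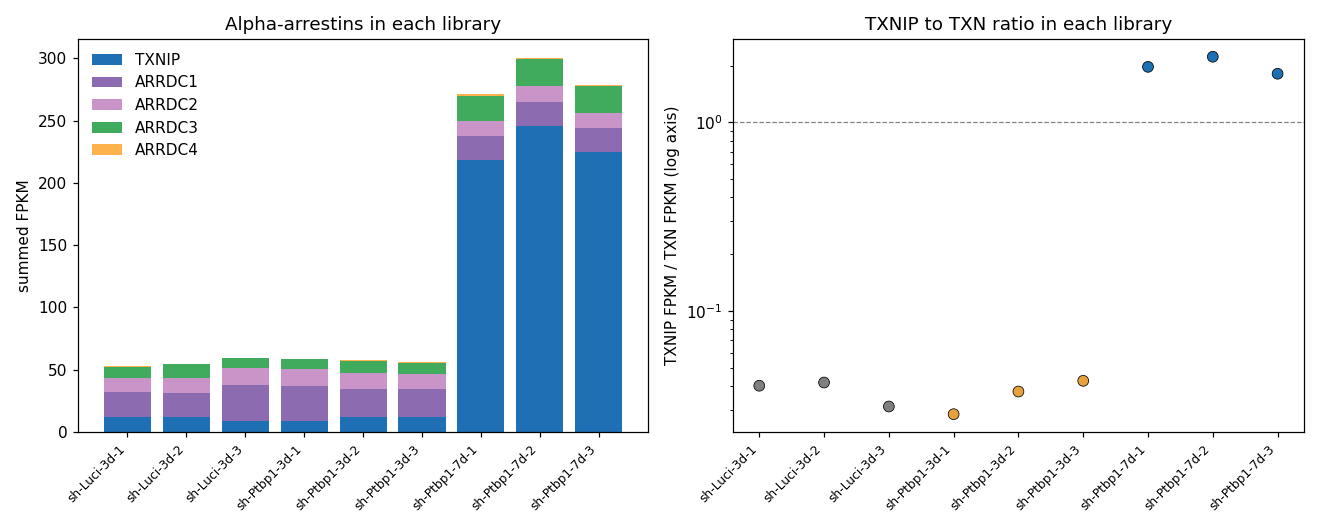
Stacked FPKM of 5 alpha-arrestins in each library (left, linear axis from 0) and the FPKM of TXNIP divided by that of TXN in each library (right, log axis, dashed line at equal levels). The stack rises from at most 59.4 to at least 271.1 FPKM through TXNIP, and the ratio lies below 0.0427 in all day 3 libraries and above 1.81 in all day 7 libraries.

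Of the factors known to act on TXNIP transcription, MLXIP and MLX fell from sh-Ptbp1-3d to sh-Ptbp1-7d, and MLXIPL was too low to test. MLXIP, on chromosome 12 from 122078722 to 122147347 (plus strand), was at 9.30, 8.80 and 8.27 FPKM in the sh-Luci-3d libraries, 9.66, 9.69 and 8.24 FPKM in those of sh-Ptbp1-3d, and 5.81, 5.62 and 4.37 FPKM in those of sh-Ptbp1-7d. The day 7 libraries lay below all others, and MLXIP fell by 0.80 on the log2 scale (standard error 0.125, limma adjusted p = 0.000362). MLX, the obligate partner of MLXIP and MLXIPL, on chromosome 17 from 42567068 to 42573239 (plus strand), was at 29.4, 29.6 and 31.5 FPKM in the sh-Luci-3d libraries, 33.5, 30.6 and 31.5 FPKM in those of sh-Ptbp1-3d, and 24.6, 24.1 and 26.2 FPKM in those of sh-Ptbp1-7d. The groups of 7 and 3 dpi did not overlap, and MLX fell by 0.35 on the log2 scale (standard error 0.074, adjusted p = 0.00257). The MLX call was lost when values were rescaled to TPM (log2 fold change -0.25, adjusted p = 0.0119) and without replicate 1 of sh-Ptbp1-3d or either of replicates 1 and 2 of sh-Ptbp1-7d (adjusted p = 0.0118 to 0.0162). MLX shares 925 bases with PSMC3IP on the opposite strand, which went from 12.1 ± 1.84 to 7.38 ± 0.00687 FPKM between the knockdown groups (SD, n = 3 each, log2 fold change -0.70, adjusted p = 0.000532). The part of PSMC3IP reads in the MLX value was not tested. MLXIPL, on chromosome 7 from 73593194 to 73624543 (minus strand), was listed at 0 in 4 libraries and reached at most 0.0157 FPKM, so it was not tested.

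TXN, the cytosolic thioredoxin that TXNIP binds, went the opposite way from TXNIP. The gene lies on chromosome 9 from 110243811 to 110256640 (minus strand). It was at 300.5, 292.5 and 296.1 FPKM in the sh-Luci-3d libraries, 298.8, 315.2 and 292.6 FPKM in those of sh-Ptbp1-3d, and 110.9, 110.3 and 123.9 FPKM in those of sh-Ptbp1-7d. All day 7 libraries were far below those of 3 dpi, and TXN fell by 1.39 on the log2 scale (standard error 0.074, limma adjusted p = 1.55e-07). The annotation holds 7 processed pseudogenes of TXN, none of them in the table, and how shared reads were assigned is not given in the sources used here. TXN2, the mitochondrial thioredoxin on chromosome 22 from 36467036 to 36482030 (minus strand), was at 40.4, 38.6 and 46.6 FPKM in the sh-Luci-3d libraries, 39.3, 39.4 and 36.4 FPKM in those of sh-Ptbp1-3d, and 34.8, 28.0 and 39.4 FPKM in those of sh-Ptbp1-7d. These groups overlapped, and TXN2 did not pass the test (log2 fold change -0.18, 95% interval -0.45 to 0.08, adjusted p = 0.232). TXN stood at 7.12 ± 0.664, 7.89 ± 0.245 and 3.43 ± 0.447 times the FPKM of TXN2 in the control, the 3 dpi and the 7 dpi knockdown libraries (SD, n = 3 each).

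The balance of TXNIP and TXN transcripts turned over between 3 and 7 dpi. The ratio of their FPKM was 0.0402, 0.0418 and 0.0312 in sh-Luci-3d, 0.0284, 0.0374 and 0.0427 in sh-Ptbp1-3d, and 1.97, 2.23 and 1.81 in sh-Ptbp1-7d. TXN was thus the more abundant transcript in all 6 day 3 libraries and TXNIP in all 3 day 7 libraries. On the log2 scale the ratio was 5.81 higher at 7 dpi than in sh-Ptbp1-3d and 5.74 higher than in sh-Luci-3d (exact permutation test, two-sided, p = 0.1 each, again the smallest possible). Most of the 5.81 was the rise of TXNIP (4.40), a gene picked on these same libraries, so the test of the ratio is not independent evidence. Between the day 3 groups the ratio differed by -0.07 (exact permutation test, p = 0.7), and the share of TXNIP in its family differed by -1.16 percentage points (exact permutation test, p = 0.5).

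The order of the levels changed accordingly. In sh-Luci-3d the means ran from TXN through TXN2, MLX, ARRDC1, ARRDC2, TXNIP, ARRDC3, MLXIP and ARRDC4 to MLXIPL. There the neighbours ARRDC2 and TXNIP, TXNIP and ARRDC3, and ARRDC3 and MLXIP overlapped between libraries, and the other neighbours did not. In sh-Ptbp1-3d the order was the same except that MLXIP stood above ARRDC3, with the same 4 genes overlapping as neighbours. In sh-Ptbp1-7d TXNIP came first, followed by TXN, TXN2, MLX, ARRDC3, ARRDC1, ARRDC2, MLXIP, ARRDC4 and MLXIPL, and no neighbours overlapped. The mean of TXNIP ranked at percentile 73.4 of all gene symbols in sh-Ptbp1-3d and at 99.1 in sh-Ptbp1-7d, and that of TXN at 99.2 and 97.8.

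At 3 dpi, knockdown left none of these genes with a call. Against sh-Luci-3d, PTBP1 itself fell by 0.85 on the log2 scale (standard error 0.073, limma adjusted p = 0.00314). That call was lost when the 2 groups were fitted alone (adjusted p = 0.0821) and without replicate 3 of sh-Ptbp1-3d (adjusted p = 0.0579). None of the 9 genes tested passed an adjusted p of 0.05 with limma, where 0.0322% of all genes did, and 0 had an unadjusted p under 0.05. Their log2 fold changes ran from -0.12 for TXN2 to 0.17 for ARRDC4, with standard errors from 0.074 to 0.328 and a lowest adjusted p of 0.827. The libraries of the 2 groups overlapped for all 9, whereas they did not for 10.8% of all genes. The 95% interval of the difference was -0.37 to 0.29 for TXNIP, -0.14 to 0.19 for TXN, -0.21 to 0.34 for MLXIP and -0.56 to 0.89 for ARRDC4. Without replicate 3 of sh-Ptbp1-3d the value of ARRDC4 turned to -0.23 and that of TXNIP was -0.15, neither past the threshold.

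**Figure D3:**
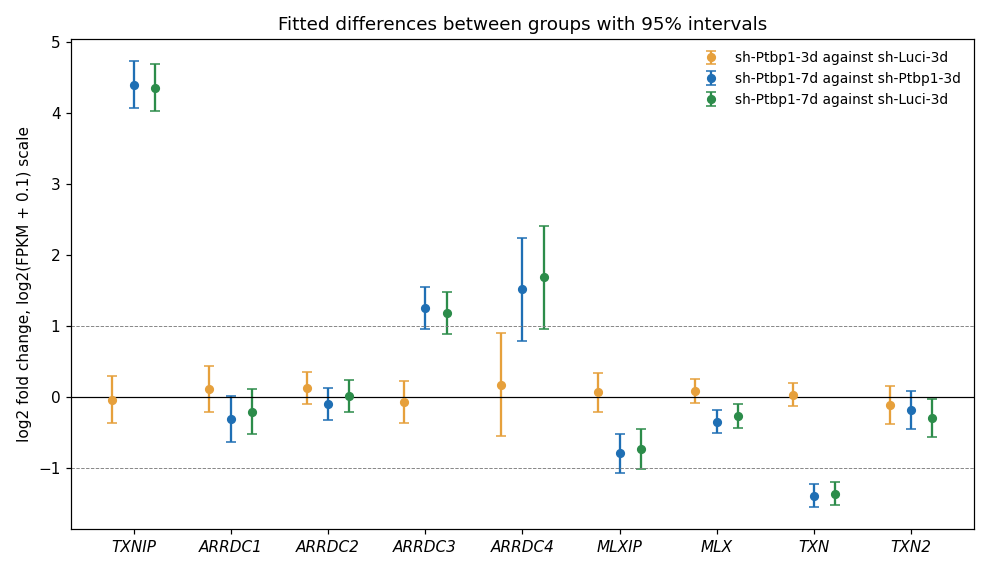
Log2 fold changes of the 9 genes tested in 3 comparisons, as points with 95% intervals from limma, with dashed lines at a fold change of 2 either way. All day 3 intervals include 0, and the 2 comparisons with sh-Ptbp1-7d, which share those libraries, put TXNIP at 4.40 and 4.36.

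Against sh-Luci-3d, the day 7 libraries gave the following values for the same genes. This comparison shares the sh-Ptbp1-7d libraries with the one above and is no separate evidence. TXNIP rose by 4.36 on the log2 scale (limma adjusted p = 9.19e-09), ARRDC4 by 1.68 (0.00153) and ARRDC3 by 1.18 (3.85e-05), making 3 genes that rose, with and without the fold threshold, against 20.6% of all genes and 8.93% with the fold threshold. TXN fell by 1.37 (1.74e-07) and MLXIP by 0.74 (0.000601), making 2 that fell against 15% of all genes, and TXN alone passed the fold threshold, against 5.68%. MLX, at -0.27, had an adjusted p of 0.0108 and passed under 3 of the alternative settings (0.00294 to 0.00723). TXN2, at -0.31, had an adjusted p of 0.0562. ARRDC1 at -0.21 and ARRDC2 at 0.01 did not pass the test, and the sign of ARRDC2 changed under median-ratio scaling and quantile normalization.

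The known surroundings of these genes were examined as lists. All list counts are of genes called from sh-Ptbp1-3d to sh-Ptbp1-7d without the fold threshold, and they stand beside 20.3% of all genes that rose and 15.5% that fell. Of 22 listed symbols of genes known as targets of MLXIP or MLXIPL, other than TXNIP and ARRDC4, 21 were in the table and 12 reached the minimum FPKM. Of these, 6 fell (15.5% of all genes), 2 rose (20.3% of all genes) and 4 were not called, with a median log2 fold change of -0.58 (0.09 over all genes). The largest falls were those of FASN (772.4 ± 42.5 to 107.5 ± 6.57 FPKM, SD, n = 3 each, log2 fold change -2.84, limma adjusted p = 5.66e-09) and SCD (log2 fold change -1.79), enzymes that make and desaturate fatty acids. RGS16, a brake on G protein signalling, rose from 0.362 ± 0.0711 to 2.40 ± 0.281 FPKM (SD, n = 3 each, log2 fold change 2.44), and ACACB, the acetyl-CoA carboxylase of mitochondria, rose by 0.65. The ACACB call was lost under quantile normalization and in 4 of the fits without 1 library (adjusted p up to 0.0232). The rest were named after their values were seen. ACACA fell by 1.38, ACLY by 1.37, ELOVL6 by 1.20 and PFKFB3 by 0.59, while HK2, KLF10, TKFC and KHK were not called. Other regulators of these genes were not examined, and the part of MLXIP in their changes was not tested.

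The enzymes that make or use glucose 6-phosphate, the sugar phosphate read by MLXIP, included 9 genes above the minimum. Of these, 3 fell (15.5% of all genes) and 1 rose (20.3%), with a median of -0.22. PGM2, a phosphoglucomutase, fell by 0.999 on the log2 scale (limma adjusted p = 1.9e-05). G6PC3, a glucose 6-phosphatase, rose by 0.74. Hexokinases HK1 and HK2, which produce glucose 6-phosphate and were looked at after the values were seen, had log2 fold changes of -0.22 and 0.29 and were not called.

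Of 8 glucose transporters tested, 3 rose (20.3% of all genes) and 4 fell (15.5%), with a median of -0.35. SLC2A1 (GLUT1), a cargo of TXNIP and the most abundant of them, fell from 79.5 ± 2.92 to 55.6 ± 1.62 FPKM (SD, n = 3 each, log2 fold change -0.52, limma adjusted p = 0.000114). SLC2A12 fell by 1.51 and SLC2A6 by 1.01 on the log2 scale. SLC2A10 rose by 1.76 on that scale and SLC2A3 (GLUT3), the transporter typical of neurons, by 1.29, from 6.27 ± 0.260 to 15.5 ± 1.68 FPKM. Among 5 known cargoes of alpha-arrestins that were tested, ITGB4, the integrin handled by ARRDC3, fell by 1.09 (adjusted p = 3.49e-06) and SLC2A1 was the other that fell (15.5% of all genes), while 0 rose (20.3%). These values are RNA levels of the cargoes, whereas alpha-arrestins act on cargo protein, which was not measured in these libraries.

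Of the 10 NEDD4 family ligases and adaptors with which alpha-arrestins work, 1 rose (20.3% of all genes), 1 fell (15.5%) and 8 were not called, with a median of -0.28. NDFIP1, an adaptor that activates these ligases, rose by 0.61 and the ligase WWP2 fell by 0.47 on the log2 scale. The ligase ITCH, named after its values were seen, was not called, at a log2 fold change of -0.29 (standard error 0.410). It was at 41.1 FPKM in replicate 1 of sh-Ptbp1-3d and at 11.3 and 10.6 FPKM in replicates 2 and 3. Of the 5 ESCRT genes used by ARRDC1 for budding, 0 passed limma's adjusted threshold in either direction (20.3% and 15.5% of all genes). Among the relatives of MLX that bind the same E-box, MAX, the partner of MYC, rose by 1.05 (adjusted p = 4.5e-06). Of the MAX-binding repressors, MXD1 rose by 0.70 and MXD3 fell by 0.97. That list of 8 had 3 rises (20.3% of all genes) and 1 fall (15.5%) and a median of 0.27. The MXD1 call was lost under quantile normalization and in 5 of the fits without 1 library (adjusted p up to 0.0245).

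Among 19 other genes of the thioredoxin system there were 6 falls (15.5% of all genes), 3 rises (20.3%) and 10 genes without a call, with a median of -0.18. PRDX1, a peroxiredoxin reduced by TXN, fell from 1125 ± 45.6 to 411.0 ± 26.1 FPKM (SD, n = 3 each, log2 fold change -1.45, limma adjusted p = 4.08e-07). MAP3K5 (ASK1), a kinase held inactive by reduced TXN, fell by 1.20 on the log2 scale. PRDX4, the peroxiredoxin of the endoplasmic reticulum, and the glutaredoxin GLRX each rose by 0.48. TXNRD1, the reductase that recharges TXN, and GSR, which reduces glutathione, were named after their values were seen. They fell by 1.11 and 1.09. Peroxiredoxins PRDX2 and PRDX3, also named after their values were seen, went opposite ways. PRDX2 rose by 0.38 (limma adjusted p = 0.0048) and PRDX3 fell by 0.34 (limma adjusted p = 0.0053). Of the NLRP3 inflammasome, to which TXNIP is known to bind, 5 genes were tested, of which 2 rose (20.3% of all genes) and 1 fell (15.5%), with a median of 0.35. CASP1 rose from 0.927 ± 0.194 to 27.5 ± 1.25 FPKM (SD, n = 3 each, log2 fold change 4.77, adjusted p = 7.78e-08) and IL18 fell by 0.64. NLRP3 itself, named after its values were seen, was at 0.0260 ± 0.00953 and 0.591 ± 0.0469 FPKM and passed with a log2 fold change of 2.45. PYCARD and IL1B, named likewise, did not exceed 0.352 and 0.291 FPKM in any library. They had log2 fold changes of -0.78 and 0.35 and were not called, so the list median is the value of the low IL1B.

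**Figure D4:**
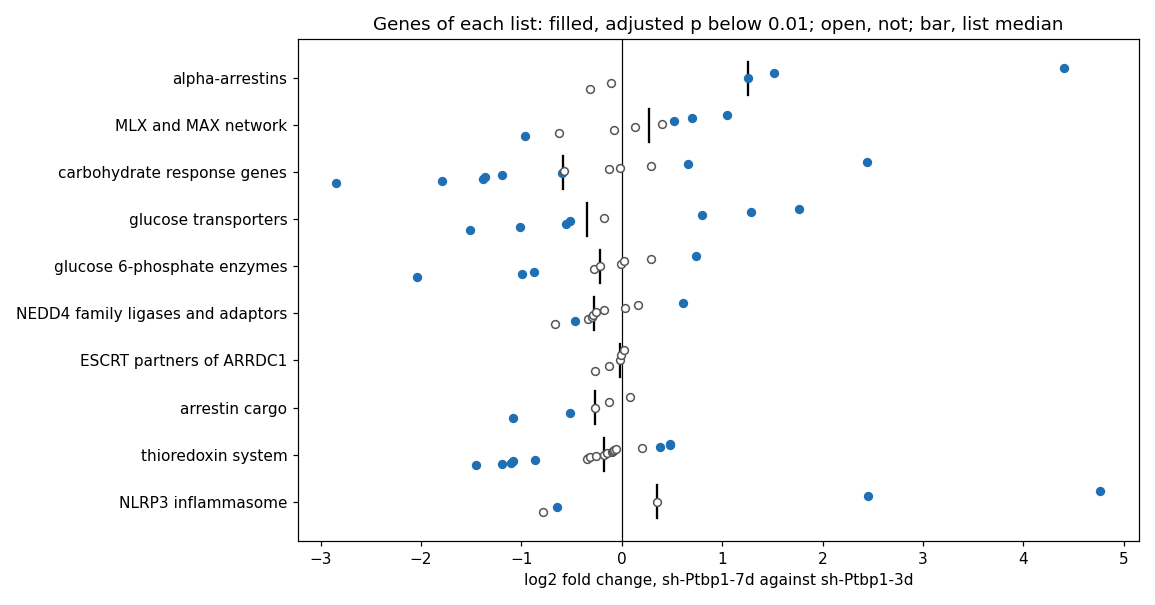
Log2 fold changes from sh-Ptbp1-3d to sh-Ptbp1-7d of each tested gene in 10 lists, filled where the limma adjusted p was below 0.01 and open where not, with a bar at each list median. The alpha-arrestin median is 1.26, the median of the carbohydrate response genes is -0.58, and the median of all genes is 0.09.

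The counts were also made without replicate 3 of sh-Ptbp1-3d. For the lists they were not made without sh-Luci-3d replicate 3. Over all 15551 genes, leaving out sh-Ptbp1-3d replicate 3 took the rises from 3152 to 2343 and the falls from 2418 to 2019. Fewer calls were not particular to that library. Genes past both thresholds went from 2211 to 2025, 2030 and 2109 without replicate 1, 2 or 3 of sh-Ptbp1-3d. Without sh-Ptbp1-3d replicate 3 the alpha-arrestins again had 3 rises and 0 falls. The counts became 1 rise and 6 falls for the carbohydrate response genes, 2 and 3 for the glucose transporters, 2 and 1 for the MLX relatives, 2 and 5 for the thioredoxin system, 1 and 3 for the glucose 6-phosphate enzymes, and 2 and 1 for the inflammasome, whose median turned to -0.13. They became 2 and 1 for the neuronal markers and 0 and 3 for the glioma and astroglial markers. The ligases and adaptors at 1 and 1, the ESCRT genes at 0 and 0 and the cargoes at 0 and 2 had the same counts as before. Markers moved between the same groups. VIM fell by 1.91 and CD44 by 1.41 on the log2 scale, TUBB3 fell by 1.42 and MAP2 rose by 0.94 (all with a limma adjusted p below 0.01). Of 8 glioma and astroglial markers, 3 fell and 1 rose, where 15.5% of all genes fell and 20.3% rose. Their summed level ran from 4578 to 4887 FPKM in sh-Ptbp1-3d and from 1392 to 1513 FPKM in sh-Ptbp1-7d, and most of it was VIM. The other markers were named after their values were seen. EGFR fell by 0.82 and S100B rose by 2.08 on the log2 scale, the latter from a mean of 0.115 to 0.797 FPKM. SOX2 at 0.22, NES at -0.35, SOX9 at -0.29 and GFAP at -0.49 were not called. Of 7 neuronal markers tested, 1 rose (20.3% of all genes) and 1 fell (15.5%). Their sum ran from 341.6 to 362.6 FPKM in sh-Ptbp1-3d and from 164.5 to 171.0 FPKM in sh-Ptbp1-7d, and most of it was TUBB3. Without TUBB3 the sum was 27.8 FPKM, 27.2 FPKM and, in replicate 3, 48.4 FPKM at sh-Ptbp1-3d, and 52.1, 52.7 and 43.9 FPKM in those of sh-Ptbp1-7d. The groups thus overlapped through replicate 3 alone, where STMN2 made up 11.5 FPKM and DCX 2.14 FPKM of the sum. SNAP25 at 0.72, SYP at -0.05, SYT1 at -0.11, DCX at -1.75 and STMN2 at -2.28, named after their values were seen, were not called. The part of these marker changes in the values of TXNIP and its relatives was not tested.

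The genes whose levels followed TXNIP most closely across the 9 libraries were PLCL2, PIK3AP1, CD47, SEMA6A and BTN3A3, with a Pearson correlation on log2(FPKM + 0.1) of 0.9995, 0.999, 0.998, 0.998 and 0.997. These correlations describe 9 libraries that fall into 3 groups, 1 of them far from the others, and 135 of the 11339 genes whose mean reached 1 FPKM exceeded 0.99. SEMA6A was another of the study's candidates. Among the relatives, ARRDC3 was at 0.98 and rank 414, and ARRDC2 at -0.27, ARRDC1 at -0.64 and TXN2 at -0.65 lay in the middle of the order. MLXIP at -0.94, MLX at -0.95 and TXN at -0.99 were near its end, TXN at rank 11269. Over the 6 libraries of 3 dpi alone the correlation with TXNIP was different, at 0.04 for TXN, -0.15 for MLXIP, -0.55 for TXN2, -0.79 for MLX, -0.84 for ARRDC2, -0.93 for ARRDC1 and 0.77 for ARRDC3. ARRDC4 had a mean under 1 FPKM and was not ranked.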

How the data were processed

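Total RNA of U251 cells was extracted with TRIzol and sequenced by the authors on an Illumina platform. The submitters' processing notes name HISAT2 and GRCh38. The counting program, its version and its use of strand are not given in the sources used here. The authors deposited FPKM per gene and library, of which 2363 entries are StringTie loci, and a table of another kind, the coordinates of those loci, which was used here only for positions. FPKM values showed no whole-read steps, so depth is unknown, no counting interval is given and tests for counts were not used.

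Samples were grouped by their labels. Entries whose mean reached 0.1 FPKM were tested on log2(FPKM + 0.1) with limma 3.58.1 (R 4.3.3) in a single model of all 9 libraries with an intensity trend, and p-values were adjusted by Benjamini-Hochberg. The thresholds followed the study (fold change above 2, FDR below 0.05 at 3 dpi and 0.01 at 7 dpi). The ratio and the share were tested with exact permutation in Python 3.11.15 (scipy 1.17.1). The fit was tested on simulated data. Named were the 10 genes, PTBP1, up to 2 rises and 2 falls per list (adjusted p below 0.01, mean of at least 1 FPKM) and the 5 genes most like TXNIP. The genes and lists were chosen with earlier results of these data known. Positions are from GENCODE v29, promoters from RefSeq. Alternatives were other pseudocounts, filters and scalings, assembled loci left out, the 2 groups alone, no trend, a replicate block and leaving out each library. Protein sequences were not analysed here. Some single genes of the lists are not reported here.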

Additional observations from a re-analysis of the deposited data

How the results depend on the processing

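TXNIP, ARRDC3, MLXIP and TXN kept their direction and their side of the threshold in both comparisons with sh-Ptbp1-7d under all alternatives run. TXNIP ranged from 4.23 to 4.51 against sh-Ptbp1-3d. Rescaling to TPM moved the median of all genes from 0.09 to 0.20 in that comparison, and quantile normalization moved it to -0.01. The number of the 9 genes called was between 4 and 6 at 7 dpi and 0 at 3 dpi in every fit. Genes past both thresholds numbered 2211 against sh-Ptbp1-3d and 2271 against sh-Luci-3d, and 1255 and 1269 with a pseudocount of 1, which shrinks the fold changes of low genes. Between the day 3 groups 2 genes passed. There was 1 with a pseudocount of 0.01, with a mean of at least 1 FPKM, with TPM, median-ratio scaling, quantile normalization or no trend, 0 with the 2 groups alone, and between 0 and 57 without 1 library, the 57 without sh-Luci-3d replicate 3. The cause was not tested.

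Values that changed sign were all uncalled. TXN at 3 dpi was -0.036 under quantile normalization, and ARRDC2 against sh-Luci-3d was -0.086 under median-ratio scaling and -0.063 under quantile normalization. Without 1 library in turn, the log2 fold change at 3 dpi ran from -0.17 to 0.13 for TXNIP, from -0.0060 to 0.28 for ARRDC1, from -0.22 to 0.059 for ARRDC3, from -0.23 to 0.41 for ARRDC4 and from -0.0030 to 0.050 for TXN. ARRDC2 at 7 dpi against sh-Luci-3d ran from -0.041 to 0.10. The TXNIP to TXN ratio at 3 dpi ran from -0.20 to 0.10 and the TXNIP share from -3.50 to 1.19 percentage points.

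The labels give the groups the same replicate numbers. Deviations of same-numbered libraries correlated between -0.03 and 0.05, and not every library correlated best with its own number. These values show no pairing by number, but they cannot tell whether same-numbered libraries were made together. With the replicate number as a block, 0 genes passed at 3 dpi, 2140 passed against sh-Ptbp1-3d and 2217 against sh-Luci-3d at 7 dpi, the 9 genes kept their calls, and PTBP1 at 3 dpi lost its call (adjusted p = 0.0583). Depth is unknown, so no counting error can be given for ARRDC4, MLXIPL or any other gene.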

Other observations

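Among the 6 libraries of 3 dpi, sh-Luci-3d replicate 3 and sh-Ptbp1-3d replicate 1 stood together in TXNIP and 3 other alpha-arrestins, an order noticed after the values were seen. They held the lowest TXNIP (9.23 and 8.48 FPKM) and the lowest ARRDC3 (7.60 and 7.88 FPKM). They also held the highest ARRDC1 (28.5 and 28.1 FPKM), the highest ARRDC2 (13.8 and 14.2 FPKM) and the highest MLX (31.5 and 33.5 FPKM), although MLX in sh-Ptbp1-3d replicate 3 was nearly the same at 31.5 FPKM. ARRDC4 did not follow this split, at 0.278 and 0.244 FPKM, nor did TXN, at 296.1 and 298.8 FPKM, both within the range of the other 4 libraries. The libraries come from both groups, and no batch is named in the labels. Over all entries above the minimum mean these 2 libraries did not stand together. Their deviations from the group means correlated at 0.016, against 0.044 for sh-Luci-3d replicate 1 with sh-Ptbp1-3d replicate 2.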
